A study of Tribolium castaneum with 17 samples.

Results

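The 8 genes described here belong to the red flour beetle *Tribolium castaneum* and were singled out of 12302 gene models because embryos aged 0-5 hr held 5-fold or more of the transcript level of ovaries. The genes are TC006593, TC010369, TC007883, TC005527, TC003354, TC002241, TC015710 and TC001885. They were chosen on the mean normalized expression of the 3 libraries of embryo (0-5 hr) and the 3 libraries of ovary, in CPM, the reads of a gene scaled by the depth of its library. The difference between those groups is therefore a description of how they were picked and carries no test. All 8 passed the filter on low values of 5 CPM or more in at least 3 libraries, as did 12152 gene models in all. None of the 8 identifiers matched the reference gene table used here, so they are given by identifier, without a name, a function or a sequence.

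In insects the growing oocyte is loaded with RNA made in the ovary, and the first steps of embryogenesis run on this maternal supply. During the maternal-to-zygotic transition the maternal transcripts are removed in steps, while the embryo's own genome becomes active. Transcripts present soon after egg laying are hence usually abundant in the ovary as well, and a large excess in the early embryo over the ovary is the unusual pattern that defines these 8 genes. Because poly(A) RNA was sequenced, a transcript's level depends on its poly(A) tail as well as on its abundance. In *Drosophila*, tails of stored maternal RNA are lengthened in the cytoplasm as the egg matures and is activated.

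Poly(A) RNA of the wild-type GA2 strain was sequenced from 17 libraries in 6 groups. Embryos aged 0-5 hr gave libraries S1 to S3 and embryos aged 6-11 hr gave S4 to S6, each library made from 80 to 100 embryos. Adults of 4 days after eclosion, 30 per library, gave 3 libraries each of female carcass (numbered S7 to S9), of male carcass (numbered S10 to S12) and of ovary (numbered S13 to S15), and the testis libraries S16 and S17. A carcass is the body left after the gonads were dissected out. The ovaries came from virgin females, whereas the embryos were laid by older beetles, so that the age and mating of the mothers differ along with the stage and cannot be told apart from it. Each library is a pool, and p-values measure the spread between such pools.

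The depth per library was 18664366 to 34847471 reads in gene models, and 1 read was worth 0.0217 to 0.0595 CPM. Values are mean CPM ± SD with n = 3 libraries, or n = 2 for testis. Of the 17 libraries, 16 lay nearest to a library of their own group by Euclidean distance of log2(CPM + 1). The exception was S6 of embryo (6-11 hr), which was nearer to S3 of embryo (0-5 hr), at a distance of 51.8, than to S4, at 59.5, or S5, at 62.2. S4 and S5 lay 17.9 apart. The ratio of later to earlier embryos is therefore also given without S6 for some genes. Ratios of embryo (6-11 hr) to ovary and log2 differences of embryo (6-11 hr) include S6 unless stated. The adult body marker flightin, a flight muscle protein, was at 802 CPM in female carcass and 933 CPM in male carcass and at no more than 10.7 CPM on average in any other group. The 3 testis markers summed to 5691 and 7288 CPM in testis, to 157, 421 and 344 CPM in S10, S11 and S12 of male carcass, and to 3.18 to 7.29 CPM in female carcass. Among the ovary markers of the study, the homologs of *loco* and *quail* were higher in female carcass, at 197 and 60.5 CPM, than in ovary, at 89.8 and 28.1 CPM. The third, a homolog of meiosis arrest female protein 1, was at 499 CPM in ovary and 51.6 CPM in female carcass. It was higher still in embryos, at 1250 CPM in embryo (0-5 hr) and 1006 CPM in embryo (6-11 hr), so it does not mark ovary against embryos. In embryo (0-5 hr) the homolog of *loco*, at 132 CPM, was also above its ovary mean, while that of *quail*, at 2.76 CPM, was below. All these markers come from the study, which chose them in part on these libraries. A high level of a marker in its own tissue is thus no independent check. In whole tissue, fewer cells of a type and less RNA per cell cannot be told apart.

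The mean of embryo (0-5 hr) exceeded that of ovary by 5.80-fold in TC001885 and by 10.3-fold in TC006593, with the others between. These ratios chose the genes. TC010369 was 7.84-fold higher, TC007883 7.43-fold, TC005527 7.27-fold, TC003354 7.20-fold, TC002241 7.19-fold and TC015710 6.47-fold. The order of the 4 genes from 7.19 to 7.43 is within the spread of the libraries, since the ratio of TC007883 had a propagated SD of 1.80 and that of TC005527 of 1.48. A ratio of 5 or more was found in 31 of the 12302 gene models, or 0.252%, so that the 8 are a subset of the models that pass this limit in the deposited values. Scaled by library totals alone, 14 models reached it and TC001885, at 4.95-fold, did not. Of the other 23, 7 had a ratio above that of TC001885 and 16 a ratio below it. TC000934, at 5.93-fold, and TC011711, at 5.68-fold, lay on either side of it. At the limit itself, TC008444 was just inside at 5.02-fold and TC010791 just outside at 4.92-fold. By limma, 1069 of the 12152 genes tested, or 8.8%, were higher in embryo (0-5 hr) than in ovary, at a log2 difference of at least 1 and an adjusted p under 0.01. For the same groups the study, with edgeR, reports far fewer genes as more than 2-fold higher in embryos, and the reason for this gap was not tested. By mean CPM, 9.64% of the genes tested that had a mean above 0 in both groups were 2-fold or more higher and 36.7% 2-fold or more lower.

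**Figure D1:**
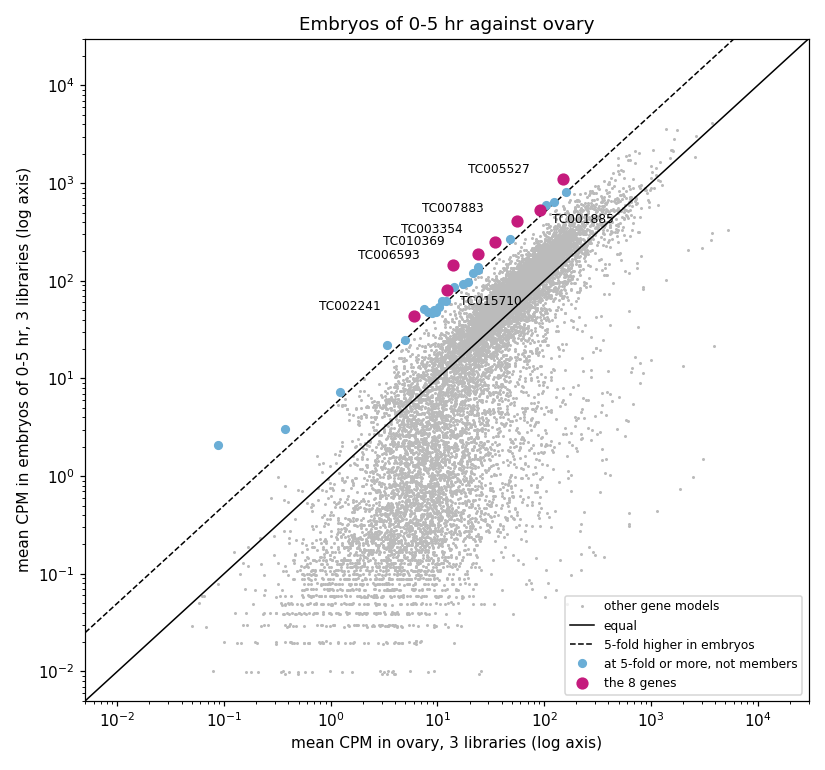
Mean CPM of ovary (x axis, log scale) against mean CPM of embryo (0-5 hr) (y axis, log scale), each over 3 libraries, for all gene models, with the 8 genes in magenta, the other 23 models at 5-fold or more in blue, and lines of equal level and of 5-fold excess (models with a mean of 0 cannot be drawn on log axes). The 8 genes lie above the 5-fold line, where 31 of 12302 models lie, and span ovary means from 6.03 to 150 CPM.

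Across the 6 groups the 8 genes did not share a profile. In embryo (0-5 hr) their means ran from 43.4 CPM in TC002241 to 1093 CPM in TC005527. The highest mean was in embryo (0-5 hr) for 4 genes, in embryo (6-11 hr) for 3 and in testis for 1. The lowest mean was in testis for 4 genes and in male carcass for 2, while female carcass and ovary were lowest for 1 gene each. Through the choice of genes, ovary could not be highest and embryo (0-5 hr) could not be lowest. The same split over all gene models was not counted.

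**Figure D2:**
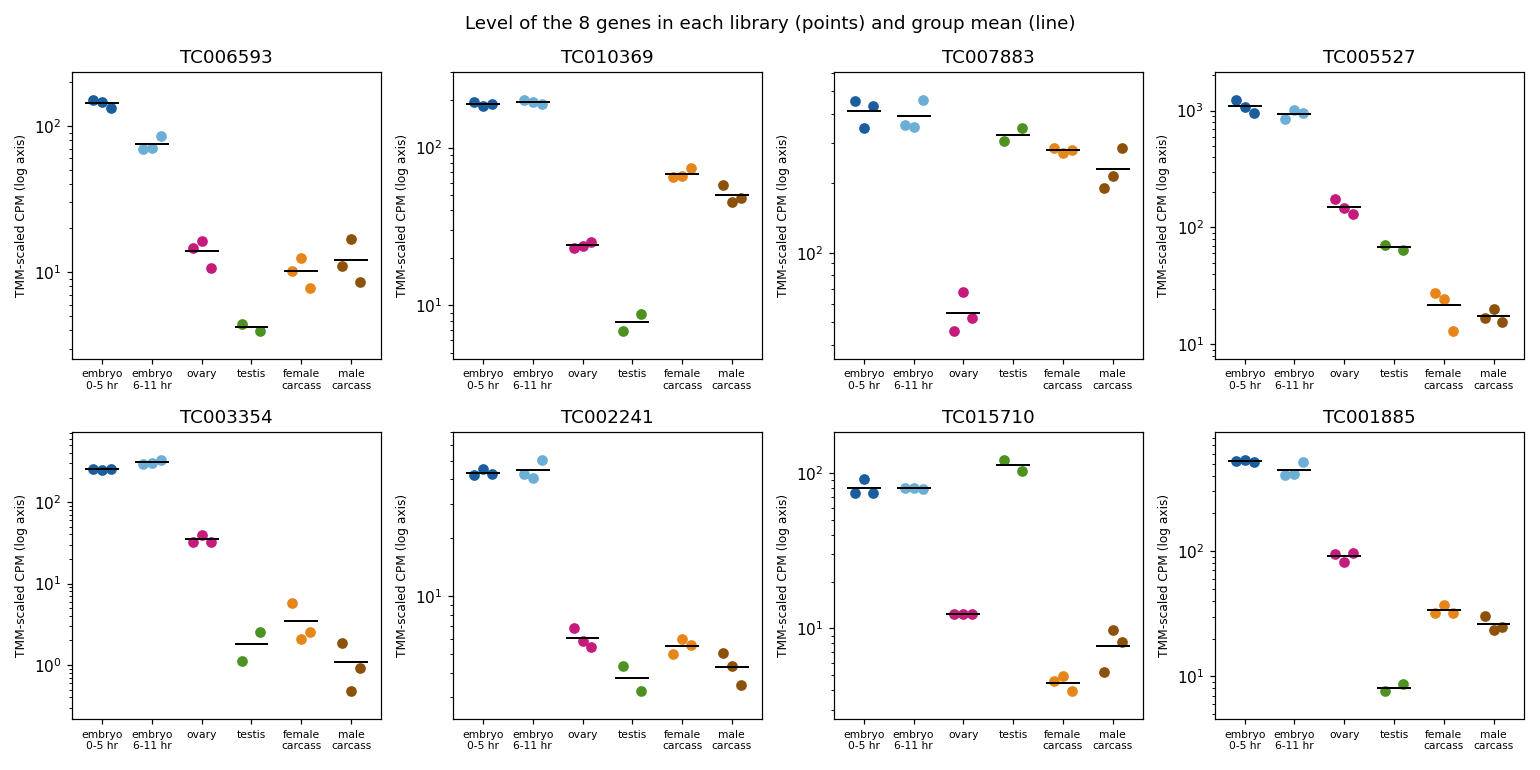
CPM of each of the 8 genes (1 panel each, y axis on a log scale) in the 6 groups, with a point for each library and a bar for the group mean. Both embryo groups stand above ovary in every panel, ovary is the lowest group in TC007883 and testis is the highest group in TC015710.

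TC003354 had a high level in embryos and almost none in the adult body. It was at 256, 246 and 252 CPM in S1, S2 and S3 of embryo (0-5 hr), and at 292, 301 and 329 CPM in S4, S5 and S6 of embryo (6-11 hr). In ovary it was at 32.6, 39.8 and 32.2 CPM. All 6 embryo libraries were above every ovary library, and all ovary libraries were above every remaining adult library. The female carcass libraries had 5.71, 2.09 and 2.57 CPM, the male carcass libraries 1.85, 0.476 and 0.921 CPM and the testis libraries 1.12 and 2.52 CPM. These last 3 groups overlapped with their neighbours in the order, and the lowest value rested on 8 reads, with an exact Poisson interval of 0.205 to 0.938 CPM at 95% that covers counting error only.

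TC005527 was the most abundant of the 8 in embryos. S1, S2 and S3 of embryo (0-5 hr) had 1240, 1078 and 961 CPM, and S4, S5 and S6 of embryo (6-11 hr) had 855, 1002 and 962 CPM. The ranges of the embryo groups overlapped. Ovary had 176, 146 and 129 CPM and testis 70.7 and 64.3 CPM. The carcasses were lowest, with 27.7, 24.3 and 13.02 CPM in female carcass and 16.99, 20.05 and 15.7 CPM in male carcass. Both gonads thus stood apart from both carcasses, with ovary above testis, while the carcass ranges overlapped.

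TC001885 was likewise abundant in embryos and differed from TC005527 in the gonads. It was at 528, 535 and 514 CPM in embryo (0-5 hr) and at 407, 409 and 517 CPM in embryo (6-11 hr). S6 alone of the later embryos reached the range of the earlier ones. Ovary had 94.7, 81.5 and 95.7 CPM. Female carcass had 31.9, 36.9 and 32.3 CPM, male carcass 30.4, 23.4 and 25.0 CPM and testis 7.59 and 8.66 CPM. The ranges from ovary down to testis did not overlap with one another.

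TC006593 had the largest ratio of embryo (0-5 hr) to ovary of the 8 and the lowest ratio of later to earlier embryos. It was at 151, 146 and 133 CPM in embryo (0-5 hr) and at 69.9, 70.8 and 85.3 CPM in embryo (6-11 hr). These ranges did not overlap, and S6 was the later library nearest to the earlier ones. In ovary it was at 14.7, 16.3 and 10.6 CPM, in male carcass at 10.9, 16.8 and 8.55 CPM and in female carcass at 10.2, 12.4 and 7.82 CPM. Those adult groups overlapped in their order, and only testis, at 4.41 and 3.96 CPM, stood below them.

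TC002241 was the least abundant in embryos, and its adult groups were close together. The libraries of embryo (0-5 hr) had 42.3, 45.2 and 42.7 CPM and those of embryo (6-11 hr) 42.6, 40.6 and 50.5 CPM. Ovary, at 6.81, 5.84 and 5.45 CPM, overlapped with female carcass, at 5.00, 5.96 and 5.56 CPM. Male carcass had 5.06, 4.34 and 3.48 CPM and testis 4.35 and 3.21 CPM. Each adult group overlapped with the next in the order, ovary with female carcass among them, but all ovary libraries lay above all male carcass and testis libraries.

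For TC010369 the adult body exceeded the ovary. Embryo (0-5 hr) had 194, 182 and 188 CPM and embryo (6-11 hr) 201, 196 and 189.5 CPM, with overlapping ranges. Female carcass followed with 65.5, 65.9 and 73.7 CPM and male carcass with 58.3, 45.0 and 47.6 CPM. Both carcasses lay above ovary, at 23.1, 23.8 and 25.2 CPM, and testis was lowest, at 6.89 and 8.84 CPM. The mean of ovary was 0.351 times that of female carcass.

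TC007883 was present at a high level everywhere except in the ovary. It was at 452, 347 and 431 CPM in embryo (0-5 hr) and at 359, 352 and 461 CPM in embryo (6-11 hr). Testis had 305 and 346 CPM, female carcass 284, 269 and 279 CPM and male carcass 190.2, 216 and 284 CPM. Ovary had 45.9, 67.5 and 52.1 CPM, below each of the other 14 libraries. The mean of embryo (0-5 hr) was only 1.48 times that of female carcass, while the mean of ovary was 0.199 times that of female carcass. The lowest library outside the ovary, S10 of male carcass, was still above the highest ovary library.

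TC015710 was highest in testis, at 122 and 104 CPM. Embryo (0-5 hr) had 74.8, 91.4 and 74.1 CPM and embryo (6-11 hr) 80.6, 80.3 and 79.1 CPM. Both testis libraries were above all embryo libraries, and the embryo groups overlapped. Ovary had 12.4, 12.3 and 12.4 CPM, male carcass 5.26, 9.82 and 8.19 CPM and female carcass 4.57, 4.92 and 3.94 CPM. The order of the 3 male carcass libraries was the same as that of their summed testis markers, lowest in S10 and highest in S11, and the part of testis RNA in the male carcass value was not tested.

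Comparing the embryo stages asks whether the early excess persisted into the interval in which the zygotic genome is active. The libraries of embryo (0-5 hr) were used to choose the genes, so these ratios are descriptive. None of the 8 genes differed by 2-fold or more in mean CPM, where 14.8% of the gene models were 2-fold or more higher and 3.81% 2-fold or more lower in embryo (6-11 hr). Without library S6 there was 1 such gene, TC006593, with a ratio of 0.490. The median ratio was 0.975 in the 8 genes and 1.14 in all gene models. TC006593 had the lowest ratio, 0.525, and TC003354 the highest, 1.22. TC006593 was also the only one of the 8 with every later library below every earlier one, a pattern of 14.6% of the genes tested, and TC003354 the only one with every later library above, a pattern of 32.7%. The remaining ratios were 0.845 in TC001885, 0.860 in TC005527, 0.952 in TC007883, 0.999 in TC015710, 1.03 in TC002241 and 1.04 in TC010369, all with overlapping libraries.

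S6 touched some of these ratios more than others. Without it the ratio was 0.490 in TC006593, 0.776 in TC001885, 0.866 in TC007883 and 1.18 in TC003354. With S6 as the sole later library it was 0.595 in TC006593 and 0.983 in TC001885. The direction in TC006593 and TC003354 was the same with and without S6, whereas TC001885 in S6 was close to its level in the earlier embryos.

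Set against ovary, embryo (6-11 hr) was higher by 4.90-fold (TC001885) to 8.81-fold (TC003354) in mean CPM, with a median of 6.77 against 0.927 for all gene models. All 8 genes were 2-fold or more higher, as were 13.1% of the gene models, and none was 2-fold or more lower, as were 34.9%. The ovary libraries entered the choice of genes, so a high ratio is in part fixed by it.

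**Figure D3:**
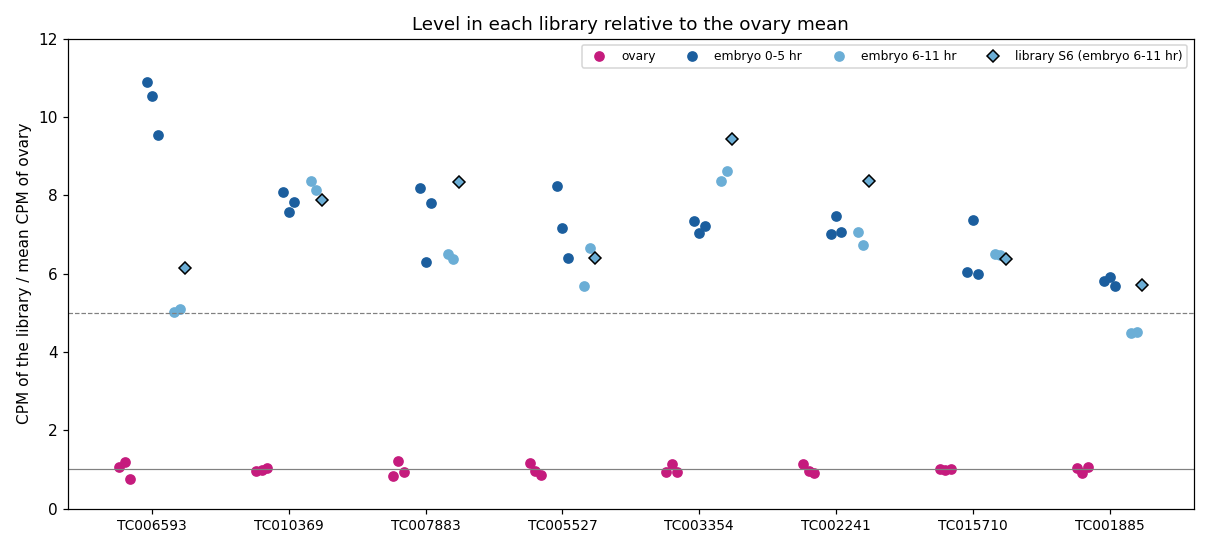
CPM of each library of ovary and of both embryo stages divided by the mean CPM of ovary (y axis, linear scale) for the 8 genes (x axis), with lines at 1 and at the 5-fold limit and S6 drawn as a diamond. The embryo libraries lie well above all ovary libraries in each gene, the later embryos lie below the earlier ones in TC006593 and above them in TC003354, and S4 and S5 lie under the 5-fold line in TC001885.

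The groups that played no part in the choice, namely embryo (6-11 hr), both carcasses and testis, allow tests. They were made with limma on log2(CPM + 1) across all genes, and a gene was called at a log2 difference of at least 1 in size with a Benjamini-Hochberg adjusted p under 0.01. Differences on this scale understate the change of genes with low values. Because the 8 genes were chosen for a high embryo level at 0-5 hr and most kept that level at 6-11 hr, calls of higher in embryo (6-11 hr) are not independent of the choice in that sense.

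Against female carcass, 7 of the 8 genes were higher in embryo (6-11 hr) and none was lower, where 27.0% of the genes tested were higher and 35.4% lower. These shares rest on 3278 genes higher and 4304 lower, which became 4416 and 3748 when the reads were scaled by library totals alone, with 7 of the 8 genes still higher. The median log2 difference was 3.24 in the 8 genes and -0.12 in all genes tested. The largest was that of TC003354, at 6.20 (SE 0.28, limma adjusted p = 2.09e-11). TC005527 followed at 5.44 (SE 0.21, adjusted p = 5.29e-12). TC015710, TC001885, TC002241 and TC006593 differed by 3.89, 3.68, 2.80 and 2.79, and TC010369, with its higher carcass level, by 1.50 (SE 0.11, adjusted p = 2.59e-09). TC007883 was not called, with a log2 difference of 0.48 (95% interval 0.13 to 0.83, adjusted p = 0.0141).

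Against male carcass 7 of the 8 genes were again higher in embryo (6-11 hr), all but TC007883, and none was lower, with 28.2% of the genes tested higher and 37.9% lower. The log2 differences were 7.26 in TC003354 (SE 0.28, limma adjusted p = 4.62e-12), 5.67 in TC005527, 4.03 in TC001885, 3.25 in TC015710, 3.11 in TC002241, 2.58 in TC006593 and 1.95 in TC010369. TC007883 differed by 0.77 (95% interval 0.42 to 1.12, adjusted p = 0.000452), under the fold limit. Scaling by library totals alone, without TMM factors, put TC007883 at 1.07 (adjusted p = 3.45e-05) and over the limit.

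Against testis, 6 of the 8 genes were higher in embryo (6-11 hr) and none was lower, where 22.7% of the genes tested were higher and 34.4% lower. TC003354 differed by 6.82 on the log2 scale, TC001885 by 5.60 (SE 0.13, limma adjusted p = 5.68e-13), TC010369 by 4.48, TC006593 by 3.88, TC005527 by 3.78 and TC002241 by 3.26. The genes not called were TC007883, at 0.25 (95% interval -0.14 to 0.65, adjusted p = 0.218), and TC015710, at -0.48 (95% interval -0.88 to -0.09, adjusted p = 0.0271). For TC007883 the interval allows a difference of up to 0.65 in favour of the embryo.

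**Figure D4:**
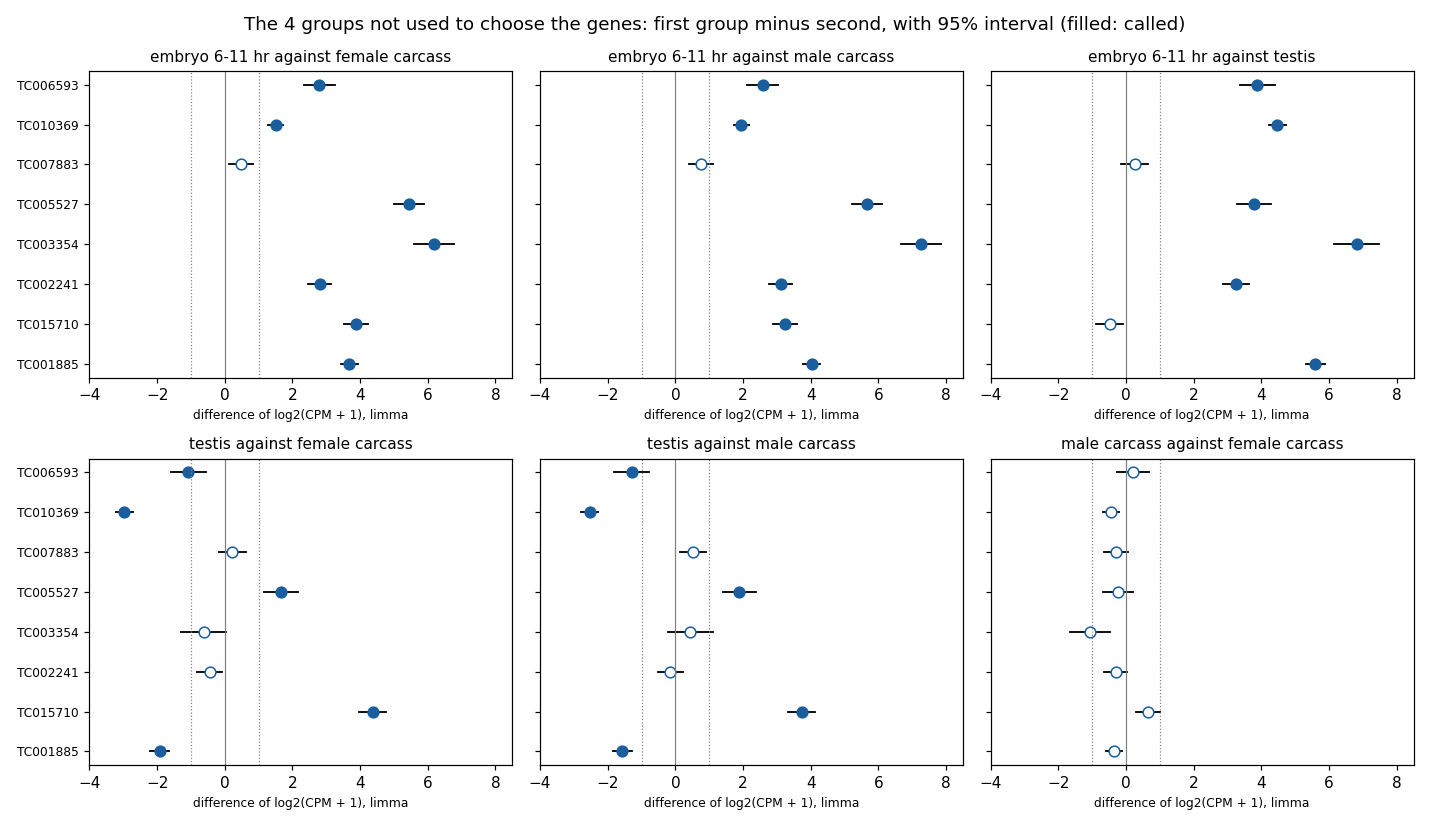
Log2 differences with 95% intervals from limma (x axis) for each of the 8 genes in the 6 comparisons among the 4 groups that were not used to choose them, filled where the gene was called. TC003354 has the largest differences between embryo (6-11 hr) and the adult groups (6.20 to 7.26), TC007883 lies between -0.29 and 0.77 in every comparison, and TC015710 is the gene most raised in testis over the carcasses (4.38 and 3.73).

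Compared with female carcass, 2 of the 8 genes were higher in testis and 3 were lower, where 27.1% of the genes tested were higher and 32.8% lower, so that neither share stood far from that of all genes. TC015710 was higher by 4.38 (SE 0.19, limma adjusted p = 2.09e-11) and TC005527 by 1.66 (SE 0.23, adjusted p = 8.32e-06) on the log2 scale. TC010369 fell by 2.98, TC001885 fell by 1.93 and TC006593 fell by 1.08 (SE 0.24, adjusted p = 0.000731). The call of TC006593 sat at the fold limit and was lost without library S8 of female carcass (log2 difference -0.94) and under scaling by library totals (-0.97).

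Compared with male carcass, TC015710 and TC005527 were again higher in testis, by 3.73 and 1.89, with 27.5% of the genes tested higher and 30.2% lower. TC010369, TC001885 and TC006593 were again lower, with log2 differences of -2.53, -1.57 and -1.29 (limma adjusted p = 0.000164 for TC006593). TC003354, TC002241 and TC007883 were not called in either comparison of testis with a carcass. The male carcass libraries contained 157 to 421 CPM of the testis markers, and their part in these differences was not tested.

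Between the carcasses none of the 8 genes was called by limma, where 5.13% of the genes tested were higher and 0.0658% lower in male carcass. The unadjusted limma p was under 0.05 for 4 of the 8, which is not a call. The share of all genes tested under that limit was not counted. TC003354 had a log2 difference of -1.06 (adjusted p = 0.0220), TC010369 of -0.44 (adjusted p = 0.0133), TC001885 of -0.35 (adjusted p = 0.0678) and TC015710 of 0.64 (adjusted p = 0.0214). On read numbers recovered from the CPM, edgeR's quasi-likelihood test called 0 of the 8, while edgeR's likelihood ratio test and DESeq2 each called 1, TC003354, at -1.65 (adjusted p = 0.000941) and -1.62 (adjusted p = 0.00174). TC003354 was also called by limma without library S10 of male carcass, at -1.32 (adjusted p = 0.00510). All its carcass values were at or under 5.71 CPM.

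A list of 8 other genes was taken from the study's account of maternal and zygotic transcripts, which names further genes. The list includes *myd88* as a homolog of a fly maternal gene. Its genes were chosen in part on these libraries, some of them against the ovary, so they are no independent set. Against female carcass, male carcass and testis alike, 2 of these 8 were higher in embryo (6-11 hr), 5 were lower and 1 was not called. Those higher were *caudal*, a homeobox gene of posterior patterning, and the homolog of Larval serum protein 2, a storage protein. The latter ran from 6.79 to 82.6 CPM in embryo (6-11 hr) and from 1.26 to 11.3 CPM in female carcass, so these ranges overlapped. The 5 lower were TC015380, TC030997, TC008514, TC009052 and TC033031, which the study calls early zygotic genes up-regulated in embryo (6-11 hr). For TC015380 the study compared with embryo (0-5 hr), not with adult tissue. Between these stages its mean went from 0.264 to 5.56 CPM and that of TC030997 from 1.31 to 5.34 CPM. TC008514 went from 24.7 to 28.7 CPM, TC009052 from 3.17 to 3.22 CPM and TC033031 from 0.146 to 0.437 CPM. The median log2 difference of the list was -2.11 against female carcass, -1.81 against male carcass and -2.46 against testis. Between testis and each carcass, 1 of the list was lower in testis, *caudal*, and 7 were not called, and between the carcasses none of the 8 was called. *caudal* is 1 of the other 23 models at 5-fold or more, with a ratio of embryo (0-5 hr) to ovary of 5.32 and means of 128 CPM in embryo (0-5 hr), 140.0 CPM in embryo (6-11 hr) and 24.1 CPM in ovary.

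Among themselves the 8 genes varied together to differing degrees. Over the 11 libraries not used to choose them, Pearson's r of log2(CPM + 1) in the 28 pairs ran from -0.13, between TC010369 and TC015710, to 0.98, between TC003354 and TC002241, with a median of 0.78. These libraries fall into 4 groups, so that r describes mainly the group levels. For each gene, the gene model outside the 8 with the most similar profile over all 17 libraries was also found. TC003354 was most like TC004778 (r = 0.995), TC002241 most like TC012995 (r = 0.995), TC001885 most like TC034075 (r = 0.995) and TC005527 most like TC008142 (r = 0.993). TC015710 was nearest to TC010664 (r = 0.990), TC006593 to TC032309 (r = 0.987) and TC010369 to TC013603 (r = 0.986).

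The number of gene models with r above 0.95 showed how common each profile was. It was 772 for TC005527, 639 for TC003354, 439 for TC001885, 206 for TC002241 and 188 for TC015710. It was 49 for TC010369, 41 for TC006593 and 1 for TC007883, whose single match was TC008896 (r = 0.969). TC008896 had means of 154 CPM in embryo (0-5 hr) and 88.8 CPM in ovary. A high r here reflects the shape over groups and not the size of the ratio, as TC034075, with 828 CPM in embryo (0-5 hr) and 283 CPM in ovary, also shows.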

How the data were processed

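Poly(A) RNA was sequenced from 17 libraries of 6 groups, taken from the labels. The authors used HISAT2 2.0.5 for alignment, BEDTools for counting over gene models and edgeR for TMM scaling. The strand setting of the counting is not given in the sources used here. The values deposited, a normalized signal, are CPM after this TMM scaling. Dividing by the value of 1 read gave whole reads within 0.01 read for 100% of 209134 values, so depth was recovered, at 18664366 to 34847471 reads per library. Intervals on reads cover counting error only.

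Although the study used edgeR on counts, the main test was limma 3.58.1 (R 4.3.3) on log2(CPM + 1), with trended, robust moderation, a model of all 17 libraries and Benjamini-Hochberg adjustment over the 12152 genes that reached 5 CPM in 3 libraries or more. It was tested on simulated data. A TC identifier was missing in 7 of 12302 gene models. The reference gene table (icTriCast1.1, 15518 genes) held 1 of the 12282 TC identifiers and none of the 8, so no sequence or position is given. The genes named are the 8, the most similar model to each, the models at the limits, and the study's list and markers, any others being chosen after their values were seen. The genes, lists and tests were chosen with earlier results of these data known. Alternatives were edgeR 4.0.16 and DESeq2 1.42.0 on recovered reads, other scaling, added constants, filters, thresholds and sets of libraries, and leaving out each library in turn.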

Additional observations from a re-analysis of the deposited data

How the results depend on the processing

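Of 888 alternative values of the 48 comparisons of a gene between groups, 868 kept their direction and side of the thresholds, 13 lost a call, 5 gained a call and 2 changed sign. Settings that altered only the thresholds, the filter or the libraries outside the groups compared left the log2 difference itself as it was. Its direction could not change under those settings, so the count of values kept is in part fixed. The changes of sign were in genes not called, TC002241 in testis against male carcass without S17 (log2 difference 0.0273, limma adjusted p = 0.907, and -0.32 without S16) and TC006593 in male against female carcass without S11 (-0.039, adjusted p = 0.982), with a range up to 0.41 without S12. With a log2 threshold of 2, 1 of the 8 genes was higher and 1 lower in testis against each carcass. In male against female carcass, 1 of the 8, TC003354, was called lower with an adjusted p under 0.05, by edgeR's likelihood ratio test, by DESeq2 and without S10. TC006593 in testis lost its call with 5 CPM added (-0.71 against female and -0.87 against male carcass) and, in a fit of testis and male carcass alone, reached an adjusted p of 0.0152.

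Leaving out each library in turn, the number higher in embryo (6-11 hr) was 7 to 7 against each carcass and 6 to 6 against testis, with 0 to 0 lower. In testis it was 2 to 2 higher and 2 to 3 lower against female carcass, and 2 to 2 and 3 to 3 against male carcass. Between carcasses it was 0 to 0 higher and 0 to 1 lower, and 8 to 8 genes were 5-fold higher in embryo (0-5 hr) than in ovary. Without a testis library, the other is assumed to vary like the other groups. Scaled by library totals, TC001885 was 4.95-fold higher in embryo (0-5 hr) than in ovary, and 14 instead of 31 models reached 5-fold. The median log2 difference of all genes between embryo (6-11 hr) and female carcass then moved from -0.12 to 0.23, and that of the 8 genes from 3.24 to 3.67. Of all genes in male against female carcass, 8 were lower, but 64 without S10, 15 without S7, 32 at an adjusted p under 0.05, 37 by the likelihood ratio test, 33 by DESeq2, 4 with library totals, 5 in a fit of 11 libraries, 2 in a fit of the carcasses and 1 at a log2 threshold of 2. That fit of the carcasses called 321 higher in place of 623. At a log2 threshold of 2 the counts of all genes were 1167, 1280 and 1087 higher in embryo (6-11 hr) against female carcass, male carcass and testis, 2701 lower against testis, and 1776 higher and 2268 lower, and 1636 and 1962, in testis against female and male carcass. No paired analysis was possible because every library has its own number and the labels record no pairing of gonad and carcass pools. Whether such pools came from the same beetles is not given, so these tests may ignore a pairing. The 2 testis libraries and pooled beetles limit precision, as does 1 read being worth up to 0.0595 CPM for values near 1 CPM.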

Other observations

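In the deposited table each gene model also carries a running number. Whether this number follows position in the genome was not tested, and these values were looked at after the ratios were seen. TC005527 and TC006593 have the numbers 12161 and 12162, and the model numbered 12160, TC006592, had a ratio of embryo (0-5 hr) to ovary of 6.60. TC006592 was at 22.1, 25.1 and 19.0 CPM in embryo (0-5 hr), at 15.9, 16.3 and 20.03 CPM in embryo (6-11 hr) and at 3.98, 2.91 and 3.14 CPM in ovary. Its libraries of female and male carcass and testis were between 1.18 and 2.28 CPM, below every ovary library. Models 12160 to 12162 thus had ratios of 6.60, 7.27 and 10.3 in a row, whereas TC006594, numbered 12163, had a ratio of 0.124. A further run was TC032590, numbered 4303, with a ratio of 5.02, beside TC010369, numbered 4304.

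Of the 12 models in the table with a number 1 above or below one of the 8 genes, 4 had a ratio of 5 or more and 8 a ratio under 2, with TC005527 and TC006593 each counted as a neighbour of the other. The 31 models at 5-fold or more held 4 pairs of consecutive numbers. Over all gene models 0.252% had such a ratio, and the 8 genes were chosen for it. Whether these counts exceed those of other sets of models was not tested. Overlap of these models in the genome was not analysed here, and without a stated strand setting, reads shared by overlapping models cannot be told apart.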
